A study of Mus musculus with 13 samples.

Results

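The matrix metalloproteases, their relatives and their inhibitors were followed in cultured skin fibroblasts of mice with and without a point mutation of fibrillin-1. The 44 genes were listed by symbol as members of these families, with earlier results of these data known, and all 44 were found among the 25655 genes of the expression tables. They comprised 18 matrix metalloproteases (MMPs), 12 ADAMTS and 7 ADAM genes, 4 tissue inhibitors of metalloproteases (TIMPs) and 3 serine proteases, Htra1, Htra3 and Fap.

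MMPs are secreted or membrane-bound zinc enzymes that are made as inactive precursors and cut collagens, elastin, proteoglycans and other matrix proteins. ADAMs shed the outer parts of cell surface proteins, ADAMTS proteins are secreted and cut proteoglycans among other substrates, and TIMPs bind the active site of these enzymes and block it. Fibrillin-1 builds the microfibrils of the dermis, and several MMPs, the gelatinases, a stromelysin and the metalloelastase among them, are known to cut it.

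The study asked whether the mutation alters the fibroblasts themselves, in particular their matrix genes. RNA was sequenced from 13 untreated primary cultures of dermal fibroblasts of newborn mice: 6 cultures were wild type (WT) and 7 were homozygous for the Fbn1 allele G234D. Set 1 held the WT cultures W1 to W4 and the G234D cultures M1 to M4, and set 2 held W5 and W6 and M5 to M7. Each culture carried its own animal number, so the spread given here is between animals; the labels give neither the strain nor the litters nor the number of passages. A point mutation need not change the level of its transcript, so the level of Fbn1, which differed by 0.15 on the log2 scale between the genotypes (adjusted p = 0.490, limma), does not check the genotype labels.

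Levels are given as TPM, transcript shares scaled to gene length, and can be set side by side between genes. They hold no read totals, which leaves the sequencing depth unknown; counting intervals are therefore not given. Differences were taken on the log2(TPM + 1) scale, which understates the change of genes near 1 TPM, and were tested with limma, with p values adjusted over all genes tested. A gene is called where its adjusted p is under 0.05. Set 1 was also divided by the animal numbers in the labels: W1, W2, M1 and M2 are termed the earlier animals and W3, W4, M3 and M4 the later animals. This is a division by number and not a labelled batch, and the number of W1 lies well below those of M1, M2 and W2, which are close to each other.

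The 10 fibroblast markers were at 1 TPM or more in every library, with a summed level of 19114 to 30585 TPM, and those of endothelial cells, keratinocytes and neutrophils summed to at most 8.56 TPM. M1 and M2 stood apart from the other cultures. Schwann cell and melanocyte markers summed to 125 TPM in M1 and 128 TPM in M2, against 19.4 to 42.7 TPM in the other 11 cultures. Skeletal muscle markers summed to 411 and 331 TPM there, against 68.0 to 169.7 TPM elsewhere. Macrophage markers summed to 165 TPM in M1 and 217 TPM in M2, to 96.1 TPM in W1 and 37.7 TPM in W2, to between 33.2 and 46.4 TPM in the later animals, and to between 104 and 164 TPM in set 2. In bulk RNA, more cells of a type and more RNA per cell cannot be told apart. Results of the 44 genes that rest on M1 and M2 are given with and without them where that fit can be made.

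**Figure D1:**
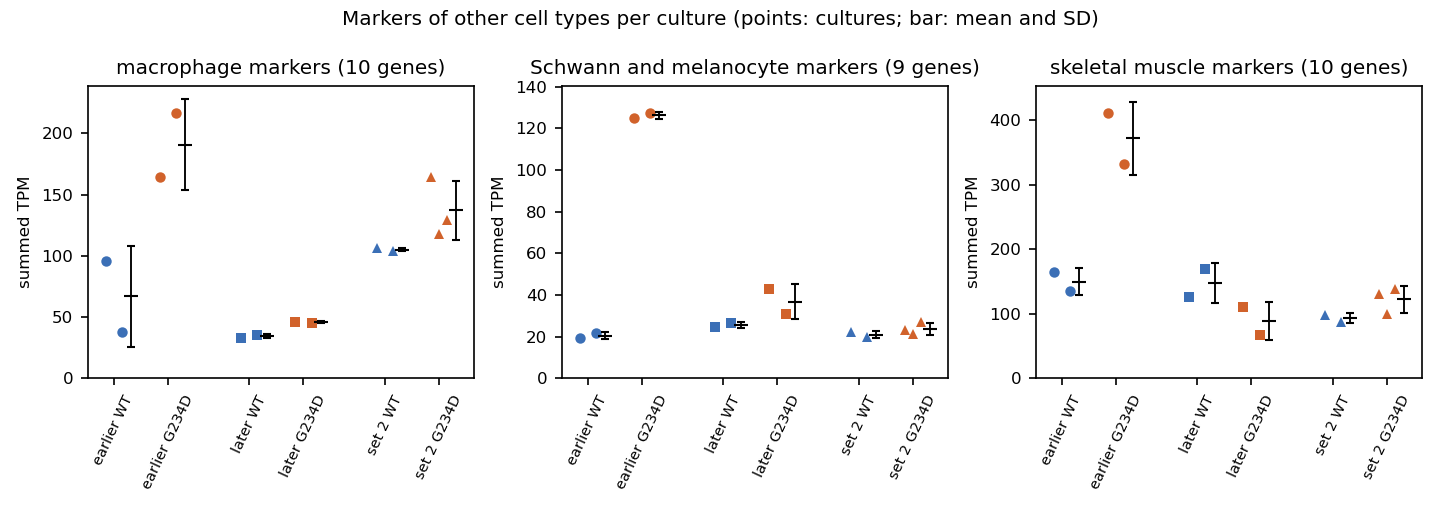
Summed TPM (vertical axes, linear) of marker genes of macrophages, of Schwann cells and melanocytes, and of skeletal muscle, with 1 point for each culture in blue (WT) or orange (G234D), by animal group; bars give the mean and SD. M1 and M2, the G234D cultures of the earlier animals, hold the highest sums of all 3 lists, at 165 and 217, 125 and 128, and 411 and 331 TPM.

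Mmp13, Mmp12, Mmp3, Mmp10, Mmp8 and Mmp27 lie in a cluster of MMP genes on chromosome 9, between 7272514 and 7581885 (mm10). The 100 bases before a RefSeq start site are shown for 4 of them, because the same short element recurs there. Capitals mark the AP-1 element TGAGTCA, or TGACTCA where it is on the other strand, and the TATA element TATAAA.
Mmp13, chr9:7272414-7272513, plus strand: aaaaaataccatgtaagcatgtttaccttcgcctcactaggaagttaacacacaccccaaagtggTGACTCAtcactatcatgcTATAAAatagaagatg
Mmp12, chr9:7347274-7347373, plus strand: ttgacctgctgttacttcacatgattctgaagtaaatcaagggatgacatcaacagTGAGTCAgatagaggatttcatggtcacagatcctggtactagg
Mmp3, chr9:7445722-7445821, plus strand: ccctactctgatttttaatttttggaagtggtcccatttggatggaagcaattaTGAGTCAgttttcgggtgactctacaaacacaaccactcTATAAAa
Mmp10, chr9:7502242-7502341, plus strand: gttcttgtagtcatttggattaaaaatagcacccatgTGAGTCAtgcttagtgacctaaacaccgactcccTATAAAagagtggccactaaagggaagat
The sequences are RefSeq's, from a promoter table of build GRCm38.p6. The stretch of Mmp12 precedes a start inside the gene, in a part that holds no exon in the GENCODE M21 annotation. RefSeq's other start of Mmp12 in the table lies close to the annotated start of the gene, and the AP-1 letters are not in its 250 bases; levels per gene do not tell which start was used. Over the 250 bases before the start, 29 of the 44 genes had an entry, with 33 windows in all, and the AP-1 letters on either strand were found in 5 of them: Mmp3, Mmp10, Mmp12, Mmp13 and Adam19. The same letters occurred in 4.46% of all 32851 promoters. TATAAA, read on the strand of the gene only, was found in Mmp3, Mmp10, Mmp13 and Adamts1, and in 7.59% of all promoters. These are matches of letters, not measured binding. Of the 4 genes shown, Mmp12 and Mmp10 were called between the animal groups of set 1, and Mmp13 and Mmp3 were called in no comparison.

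In these fibroblasts the membrane-type protease Mmp14 and 3 inhibitors stood at similar, high levels. Mmp14, Timp3, Timp1, Htra1, Timp2 and Mmp2 were, in that order, the 6 highest of the 44 genes by mean level, at 652, 575, 568, 490, 458 and 406 TPM over the 13 cultures. The ranges over cultures of neighbours in this order overlapped. Of the 44 genes, 32 were at 1 TPM or more in all 13 cultures, and 8 were under 1 TPM in all of them: Mmp8, Mmp24, Mmp25, Timp4, Adamts8, Adamts18, Adamts19 and Adamts20. Mmp27 reached 1 TPM in 3 libraries, all of set 2. The other 35 genes passed the filter on low values and were tested over both sets and in set 1.

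**Figure D2:**
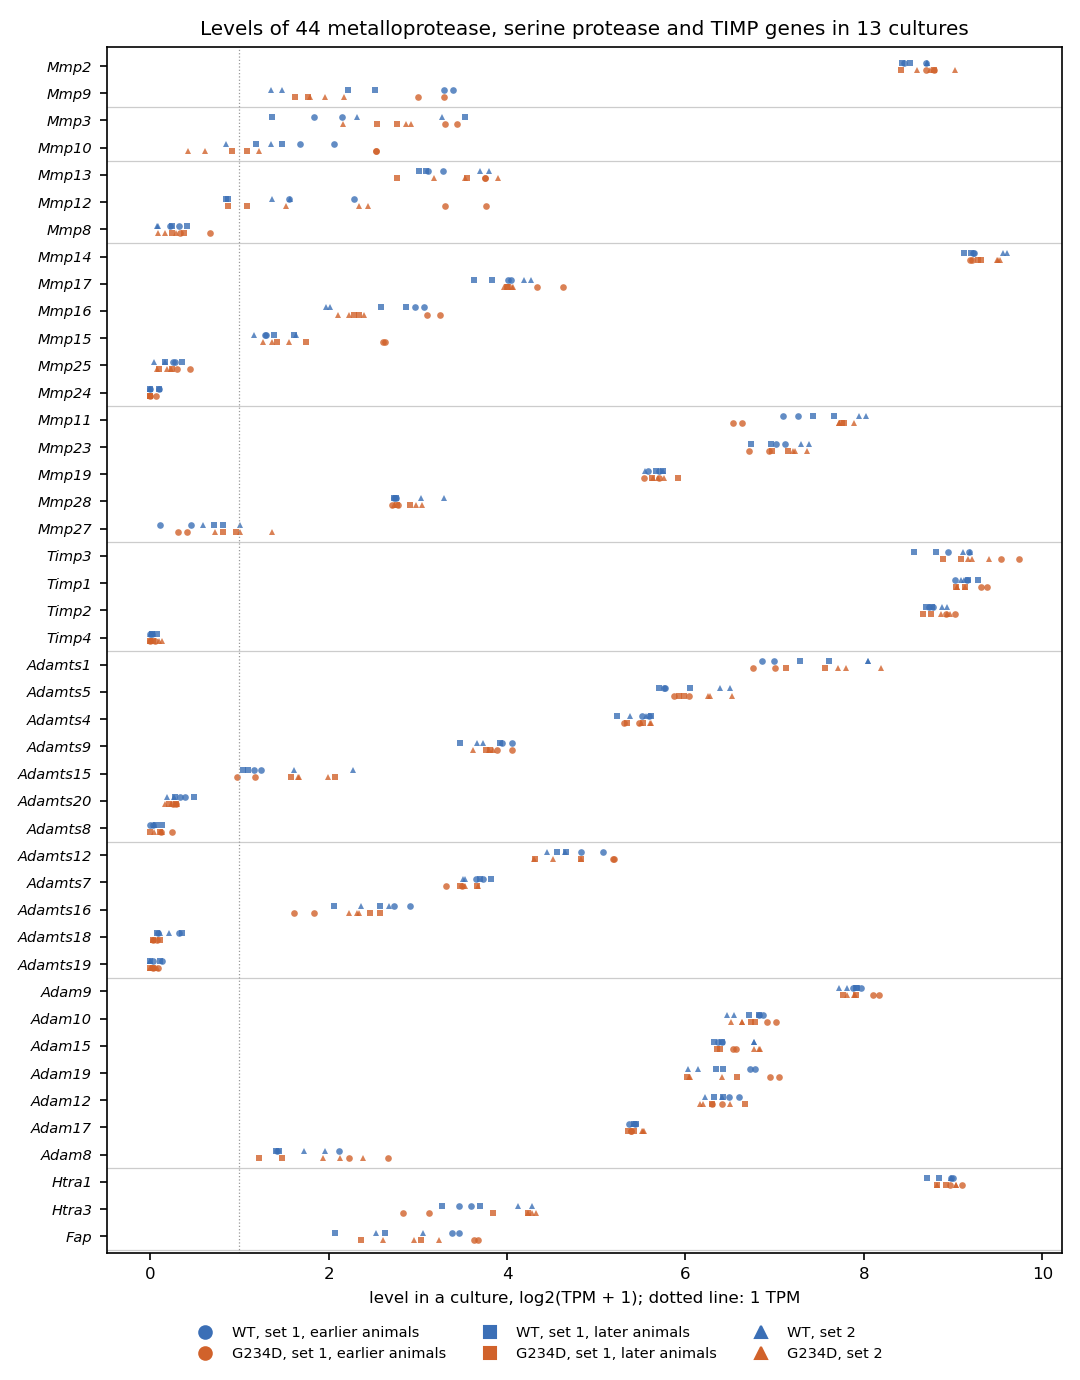
Level of each of the 44 genes in each of the 13 cultures, as log2(TPM + 1) on the horizontal axis, ordered within role groups that thin lines divide. Points are single cultures, coloured by genotype and shaped by animal group, and the dotted line marks 1 TPM; Mmp14, Timp3, Timp1, Htra1, Timp2 and Mmp2 stand farthest to the right, and 8 genes lie left of the line in all cultures.

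Of the gelatinases, which cut denatured collagen and basement membrane collagen, Mmp2 was high and Mmp9 was low. Mmp2 was at 414, 349, 366 and 342 TPM in W1 to W4 and at 440, 413, 441 and 340 TPM in M1 to M4. In set 2 it was at 419 and 416 TPM in W5 and W6 and at 428, 386 and 518 TPM in M5 to M7. The genotypes overlapped in both sets. Mmp9, which macrophages and neutrophils also make (chr2:164940780-164955850, mm10), was at 8.82 and 9.49 TPM in W1 and W2, 6.999 and 8.83 TPM in M1 and M2, 3.65 and 4.74 TPM in W3 and W4, and 2.09 and 2.41 TPM in M3 and M4. In set 2 it was at 1.78 and 1.55 TPM in W5 and W6 and at 2.90, 2.46 and 3.51 TPM in M5 to M7. All 4 earlier animals of set 1 lay above all 9 other cultures.

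The stromelysins Mmp3 and Mmp10 cut many matrix proteins and activate other MMP precursors. Mmp3 was at 3.45, 2.56, 1.58 and 10.5 TPM in W1 to W4, at 8.91, 9.81, 5.78 and 4.81 TPM in M1 to M4, at 8.64 and 3.97 TPM in W5 and W6, and at 6.58, 3.47 and 6.31 TPM in M5 to M7. The WT cultures of set 1 held both its lowest level, in W3, and its highest, in W4. Mmp10 was at 2.19 and 3.17 TPM in W1 and W2, 4.78 and 4.77 TPM in M1 and M2, and between 0.34 and 1.79 TPM in the other 9 cultures. Again the 4 earlier animals were the highest.

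Mmp13 is the main interstitial collagenase of rodents, and Mmp12 is the metalloelastase known from macrophages. Mmp13 was at 7.67, 8.74, 7.54 and 7.04 TPM in W1 to W4, 12.4, 12.5, 10.7 and 5.82 TPM in M1 to M4, 12.0 and 12.9 TPM in W5 and W6, and 10.5, 8.04 and 13.9 TPM in M5 to M7. Mmp12 was at 3.89 and 1.94 TPM in W1 and W2, 8.91 and 12.6 TPM in M1 and M2, 0.83 and 0.80 TPM in W3 and W4, and 1.12 and 0.83 TPM in M3 and M4. In set 2 Mmp12 was at 1.58 and 1.97 TPM in W5 and W6 and at 4.05, 1.88 and 4.42 TPM in M5 to M7. M1 and M2 were its highest cultures and the later animals its lowest. Mmp8, the neutrophil collagenase, was at 0.05 to 0.59 TPM.

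Among the membrane-bound MMPs, Mmp14, a collagenase of the cell surface and the activator of Mmp2, was the highest of all 44 genes. It was at 596, 602, 586 and 557 TPM in W1 to W4, 582, 592, 633 and 620 TPM in M1 to M4, 752 and 778 TPM in W5 and W6, and 718, 723 and 738 TPM in M5 to M7. Every culture of set 2 lay above every culture of set 1. Mmp15, another transmembrane enzyme (chr8:95352268-95375080, mm10), was at 5.10 and 5.20 TPM in M1 and M2 and at 1.2 to 2.36 TPM in the other 11 cultures, with W1 and W2 both at 1.45 TPM. Mmp17, which is held to the membrane by a lipid anchor, was at 15.1, 15.5, 13.2 and 11.3 TPM in W1 to W4, 19.1, 23.7, 15.2 and 14.9 TPM in M1 to M4, 18.2 and 17.3 TPM in W5 and W6, and 15.6, 15.7 and 14.6 TPM in M5 to M7. In each animal group of set 1 both G234D cultures lay above both WT cultures, and in set 2 all 3 lay below both WT cultures.

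Mmp11, or stromelysin-3, is made by stromal fibroblasts and activated inside the cell (chr10:75923222-75936496, mm10). It was at 135 and 152 TPM in W1 and W2, 91.6 and 98.5 TPM in M1 and M2, 201 and 171 TPM in W3 and W4, and 215 and 218 TPM in M3 and M4. In set 2 it was at 246 and 258 TPM in W5 and W6 and at 209, 236 and 210 TPM in M5 to M7. M1 and M2 were the lowest cultures, and all earlier animals lay below all others. Mmp23, a membrane-bound enzyme that is cut free, was at 104 to 141 TPM in set 1 and at 146 to 166 TPM in set 2. M1 and M2 lay below W1 and W2 for Mmp23, and M3 and M4 lay above W3 and W4. Mmp19, at 45.5 to 59.6 TPM, and Mmp28, at 5.55 to 8.80 TPM, varied little.

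The TIMPs were represented by 3 genes. Timp1, which inhibits most secreted MMPs, was at 571, 520, 574 and 620 TPM in W1 to W4, 665, 633, 562 and 521 TPM in M1 to M4, 543 and 556 TPM in W5 and W6, and 527, 526 and 561 TPM in M5 to M7. Timp2, which also takes part in the activation of Mmp2 by Mmp14, was at 424, 438, 433 and 415 TPM in W1 to W4, 517, 484, 430 and 404 TPM in M1 to M4, 489 and 470 TPM in W5 and W6, and 466, 486 and 498 TPM in M5 to M7. Both genes were highest in M1, and M2 came next for Timp1. Timp3, which binds to the matrix and also blocks ADAMs and ADAMTS proteins (chr10:86300372-86349506, mm10), had the widest range of the 3. It was at 576 and 493 TPM in W1 and W2, 851 and 739 TPM in M1 and M2, 446 and 377 TPM in W3 and W4, 541 and 471 TPM in M3 and M4, 584 and 550 TPM in W5 and W6, and 574, 593 and 676 TPM in M5 to M7. M1 and M2 were its highest cultures, and both G234D cultures lay above both WT cultures in each animal group of set 1.

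Adamts1 and Adamts5, which cut versican and aggrecan, led the ADAMTS genes. Adamts1 was at 115 and 126 TPM in W1 and W2, 127 and 107 TPM in M1 and M2, 194 and 155 TPM in W3 and W4, 139 and 189 TPM in M3 and M4, 263 and 262 TPM in W5 and W6, and 222, 292 and 208 TPM in M5 to M7. It was lowest in the earlier animals, higher in the later ones and highest in set 2, with no overlap between these groups. Adamts5 was at 53.5, 53.0, 65.5 and 51.1 TPM in W1 to W4, 64.5, 57.5, 62.4 and 60.01 TPM in M1 to M4, and 75.3 to 90.8 TPM in set 2. The related Adamts4 was at 36.5 to 48.0 TPM, Adamts9 at 10.1 to 15.7 TPM and Adamts15 at 0.96 to 3.83 TPM.

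Of the other ADAMTS genes, Adamts12 and Adamts7, which cut the cartilage protein COMP, were at 18.7 to 35.7 TPM and 8.99 to 13.2 TPM, and the highest Adamts12 levels were those of M1 and M2. Adamts16, a secreted relative (chr13:70727802-70841811, mm10), was at 5.63 and 6.55 TPM in W1 and W2, 2.06 and 2.58 TPM in M1 and M2, 4.97 and 3.17 TPM in W3 and W4, 4.98 and 4.51 TPM in M3 and M4, 5.39 and 4.14 TPM in W5 and W6, and 3.99, 3.70 and 4.05 TPM in M5 to M7. M1 and M2 were its lowest cultures and W1 and W2 its highest.

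All 7 ADAM genes were above 1 TPM in every culture. Adam9 was at 210 to 287 TPM and Adam10, the sheddase of Notch, at 87.4 to 128 TPM, both highest in M1. Adam15, Adam19 and Adam12 were at 79.1 to 114, 63.7 to 131 and 70.4 to 101 TPM. Adam17, which releases TNF and EGF receptor ligands, had the narrowest span of the 7 relative to its level, at 40.1 to 45.3 TPM, and Adam8 was at 1.33 to 5.34 TPM. Of the serine proteases, Htra1 was at 416 to 550 TPM. Htra3 was at 11.1 and 10.03 TPM in W1 and W2, 6.12 and 7.71 TPM in M1 and M2, 11.9 and 8.65 TPM in W3 and W4, 13.3 and 17.9 TPM in M3 and M4, and 16.5 to 19.1 TPM in set 2. Fap, a cell surface peptidase of activated fibroblasts (chr2:62500943-62574075, mm10), was at 10.01 and 9.41 TPM in W1 and W2, 11.4 and 11.8 TPM in M1 and M2, 3.19 and 5.18 TPM in W3 and W4, 7.18 and 4.15 TPM in M3 and M4, and 4.76 to 8.43 TPM in set 2. The 4 earlier animals were the highest for Fap.

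The comparison of genotypes over all 13 cultures called none of the 35 genes tested. With the animal group as a covariate, limma called 0 of 11942 genes (0% of all tested), and the lowest adjusted p of any gene was 0.184. At an unadjusted p under 0.05 there were 1076 genes (9.01%), among them 3 of the 35: Timp3, Mmp12 and Mmp15, all with higher means in G234D cultures, as had 5.84% of all genes. The difference of Timp3 was 0.31 (SE 0.081, 95% interval 0.14 to 0.49, adjusted p = 0.350, limma). That of Mmp12 was 0.78 (SE 0.24, interval 0.26 to 1.30, adjusted p = 0.417), and that of Mmp15 was 0.44 (SE 0.19, interval 0.03 to 0.85, adjusted p = 0.514). Without M1 and M2 these differences were 0.20, 0.40 and 0.04. The differences of Mmp14 and Timp1 were close to 0, with intervals of -0.07 to 0.08 and -0.10 to 0.14. The 35 genes had a median difference of 0.04, with 25 positive and 10 negative, against a median of 0.01 and 56.6% positive over all genes. Markers of other cells moved with these differences: higher in G234D cultures, though none was called, were 9 of 9 macrophage markers tested (median 0.61, 6 at an unadjusted p under 0.05), 5 of 5 Schwann cell and melanocyte markers (median 0.86) and 8 of 8 muscle markers (median 0.79). Among the macrophage markers, Adgre1 reached 1 TPM in W5 alone of the WT cultures, so it passed the filter mainly through G234D cultures. Taken by set, the median of the Schwann cell and melanocyte markers was 1.32 in set 1, which holds M1 and M2, and 0.083 in set 2. That of the muscle markers was 1.08 and 0.41, and that of the macrophage markers 0.81 and 0.34. These medians are not given without M1 and M2. The part of the markers in the differences was not tested.

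Taken set by set, none of the genes passed either, and a few leaned in opposite directions. In set 1, 1 of 11905 genes was called (0.0084%) and it was not of this family; no gene of the 35 had genotypes that did not overlap, against 4.15% of all genes. Without W4, its highest culture, Mmp3 alone of the 35 was called there. In set 2, 1 of 12060 genes was called (0.00829%), also from outside the family. There 5 of 36 genes had all 3 G234D cultures above both WT cultures and 4 had them below, against 16.6% and 7.02% of all genes, 23.6% together, in so small a set. Mmp9 had a difference of -0.43 in set 1 (SE 0.13, adjusted p = 0.341, limma) and 0.56 in set 2 (SE 0.16, adjusted p = 0.672). Mmp17 had 0.36 in set 1 (SE 0.081, adjusted p = 0.215) and -0.20 in set 2 (SE 0.080, adjusted p = 0.750). The test of the difference between the sets called 1 of 11942 genes (0.00837%) and none of the 35, with an adjusted p of 0.208 for both Mmp9 and Mmp17.

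Between the animal groups of set 1, the gelatinase Mmp9, the peptidase Fap and the inhibitor Timp3 were lower in the later animals, and Mmp11 and Adamts1 were higher. With genotype as a covariate, limma called 850 of 11905 genes (7.14%), 332 higher (2.79%) and 518 lower (4.35%) in the later animals, and 11 of the 35 genes, 2 higher and 9 lower. These counts include Mmp12, which passed the filter on low values through the earlier animals; without it they are 10 and 8 lower. Of the genes called, 39.1% were higher, and under median-of-ratios scaling 51.0% of 822; the 11 genes and their directions were the same under that scaling. The median difference of the 35 genes was -0.13, with 12 positive and 23 negative, against a median of -0.02 and 43.3% positive over all genes. In 8 of the 35 all later animals lay below all earlier ones and in 2 they lay above, against 9.77% and 5.7% of all genes, 15.5% together; Mmp12 is 1 of the 8, which are 7 without it.

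Mmp9 fell by 1.21 in the later animals (SE 0.13, adjusted p = 0.0058, limma), from a mean of 8.53 ± 1.07 TPM (SD, n = 4) to 3.22 ± 1.21 TPM. Fap fell by 1.01 (SE 0.16, adjusted p = 0.0175), from 10.6 ± 1.12 to 4.92 ± 1.71 TPM. Mmp12 fell by 1.81 (SE 0.32, adjusted p = 0.0266), from 6.84 ± 4.85 to 0.90 ± 0.15 TPM, and Mmp10 fell by 1.03 (SE 0.21, adjusted p = 0.0274). Mmp12 reached 1 TPM in all 4 earlier animals and 1 later one, so it could scarcely have passed the filter without a difference. Timp3 fell by 0.51 (SE 0.093, adjusted p = 0.0252), from 665 ± 161 to 459 ± 67.8 TPM. Mmp17, Mmp16, Adam19 and Adamts12 fell by 0.39 to 0.58. The 2 genes that rose were Mmp11, by 0.77 (SE 0.16, adjusted p = 0.0374), from 119 ± 29.0 to 201 ± 21.4 TPM, and Adamts1, by 0.50 (SE 0.11, adjusted p = 0.0402). By role, those that fell were 1 of 2 gelatinases, 1 of 2 stromelysins, 1 of the 2 genes tested of the collagenases and metalloelastase, 2 of 4 membrane-type MMPs, 1 of 3 TIMPs, 1 of 8 ADAMTS genes, 1 of 7 ADAMs and 1 of 3 serine proteases.

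These calls depended on the cultures used. Without M1 and M2 only WT cultures span both animal groups, so the difference is that of W3 and W4 against W1 and W2. There 13 of 12043 genes and none of the 35 were called, with all 11 differences in the same direction. Mmp9 was at -0.98 (adjusted p = 0.070, limma), Fap at -1.07, Mmp12 at -1.06, Timp3 at -0.38, Mmp11 at 0.37 and Adamts1 at 0.52. In the full fit these genes were, in the same order, at -1.21, -1.01, -1.81, -0.51, 0.77 and 0.50. Loss of a call through fewer cultures was not told apart from dependence on M1 and M2. Of single cultures left out, M1 and M2 each left Mmp9 alone called, M3 left 3, W1 left 4, and W3 and M4 each left 5 of the 35. With no filter on low values, 269 genes were called and 4 of the 11 kept, Mmp9, Fap, Mmp12 and Timp3; both genes that rose lost the call, Mmp11 with an adjusted p of 0.0531 and Adamts1 with 0.0631. With the replicate number as a random block 2037 genes were called, and of the 35 genes all 11 and Htra1, Adam8 and Adam10 in addition, all 3 lower. That fit had a negative correlation between same-numbered cultures (-0.23). The differences of these genes were the same as in the main fit and their SEs were smaller, 0.127 against 0.161 for Fap and 0.25 against 0.32 for Mmp12.

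Many markers of other cells differed between the animal groups as well. Of macrophage markers all 7 tested were lower in the later animals, 1 of them called, and their summed level was 33.2 to 46.4 TPM there against 37.7 to 217 TPM in the earlier animals. Of 4 pericyte markers tested 2 were called lower, Rgs5 and Notch3, and 1, Kcnj8, was higher and not called. Rgs5 reached 1 TPM in the earlier animals only, so it passed the filter through them. All 8 muscle markers (median -0.91) and all 5 Schwann cell and melanocyte markers (median -0.71) were lower, none of them called. All 6 neutrophil markers were under 1 TPM in every culture. Of the 10 fibroblast markers 2 were called higher in the later animals. The part of these markers in the result was not tested.

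**Figure D3:**
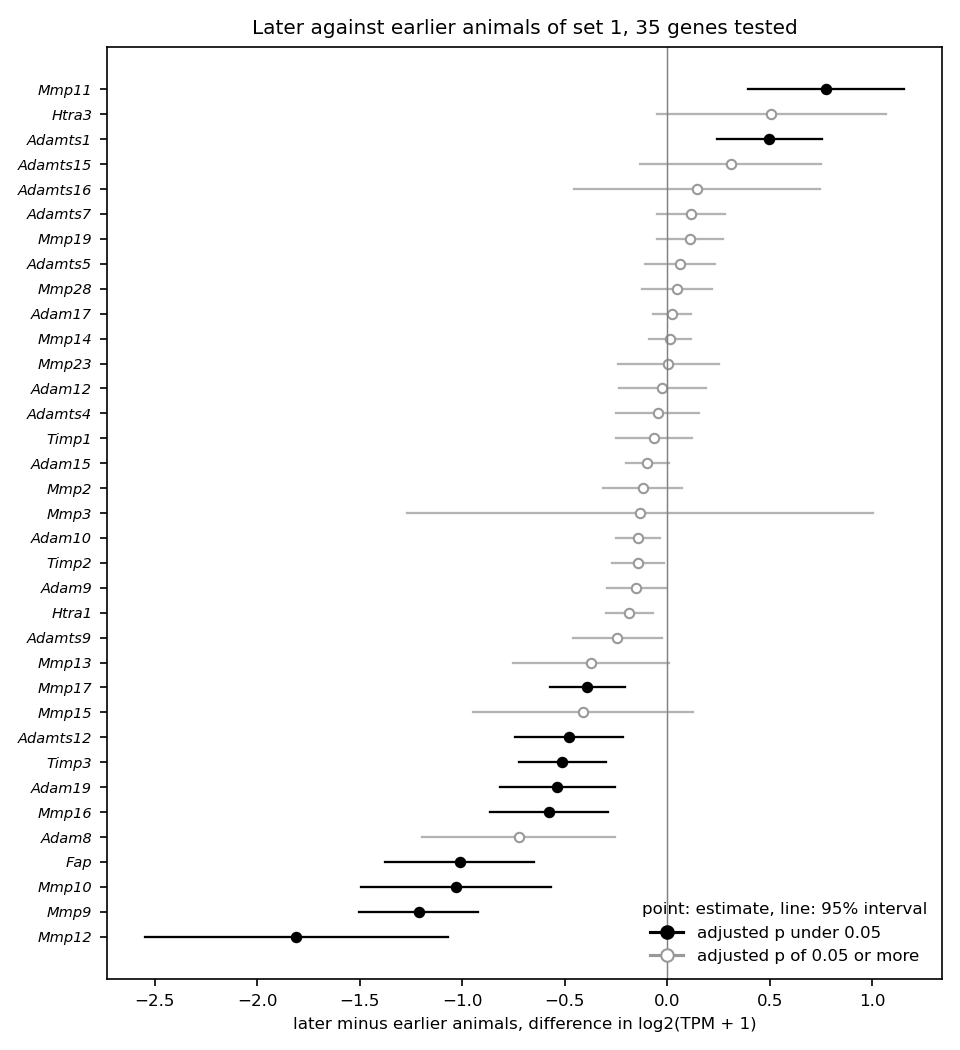
Difference of later minus earlier animals of set 1 on the log2(TPM + 1) scale for the 35 genes tested, with 95% confidence intervals as lines. Black points are the 11 genes called and open points the others; of the 11, 9 lie below 0 and 2 above, from -1.81 for Mmp12 to 0.77 for Mmp11.

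The effect of genotype itself differed between the animal groups of set 1 for 3 of the 35 genes. The interaction test called 334 of 11905 genes (2.81%), 111 with a positive term (0.932%) and 223 with a negative one (1.87%), and of the 35 genes 2 positive and 1 negative. For Mmp11 the G234D minus WT difference was -0.59 among W1, W2, M1 and M2 and 0.22 among W3, W4, M3 and M4, an interaction of 0.81 (SE 0.12, adjusted p = 0.0134, limma). For Mmp15 it was 1.33 and 0.09 (interaction -1.24, SE 0.22, adjusted p = 0.0244), and for Adamts16 -1.10 and 0.20 (interaction 1.30, SE 0.25, adjusted p = 0.0330). In set 2 the same differences were -0.21, -0.01 and -0.22. In means, Mmp11 was at 95.1 ± 4.90 TPM (SD, n = 2) in M1 and M2 against 144 ± 11.8 TPM in W1 and W2, and at 216 ± 2.59 TPM in M3 and M4 against 186 ± 21.3 TPM in W3 and W4.

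A further 4 genes had adjusted p values of 0.0552 to 0.0680 and were not called: Mmp12 (interaction -1.50), Timp1 (-0.39), Htra3 (1.11) and Mmp10 (-0.99). All 3 TIMPs tested and 6 of 7 ADAMs had negative terms, that is, a lower G234D minus WT difference in the later animals. Of the 35 genes 14 had positive and 21 negative terms, and over all genes 53.6% of terms were positive. With 2 cultures in each cell of the design, single libraries decided the calls: without W2 or without M1 none of the 35 was called, without W1 only Mmp11 of the 3 was kept, without M2 Mmp15 was lost, and without W4 Mmp15 and Adamts16 were lost. With the replicate number as a block, 189 genes were called; Mmp11 and Adamts16 kept the call, with adjusted p values of 0.0226 and 0.0430 (limma), and Mmp15 lost it (0.0675). With no filter on low values Mmp11 alone of the 3 was called, and Mmp15 and Adamts16 had adjusted p values of 0.0513 and 0.0762. Without both M1 and M2 the earlier animals hold no G234D culture, so the test cannot be made. All 5 Schwann cell and melanocyte markers tested were called in the same comparison, with a median of -1.90, as were 1 of 8 muscle markers, with a negative term, and 2 of 10 fibroblast markers, with positive ones. All 8 muscle markers had negative terms (median -1.95), as had all 7 macrophage markers tested (median -1.16), none of which was called. Their part in the result was not tested.

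**Figure D4:**
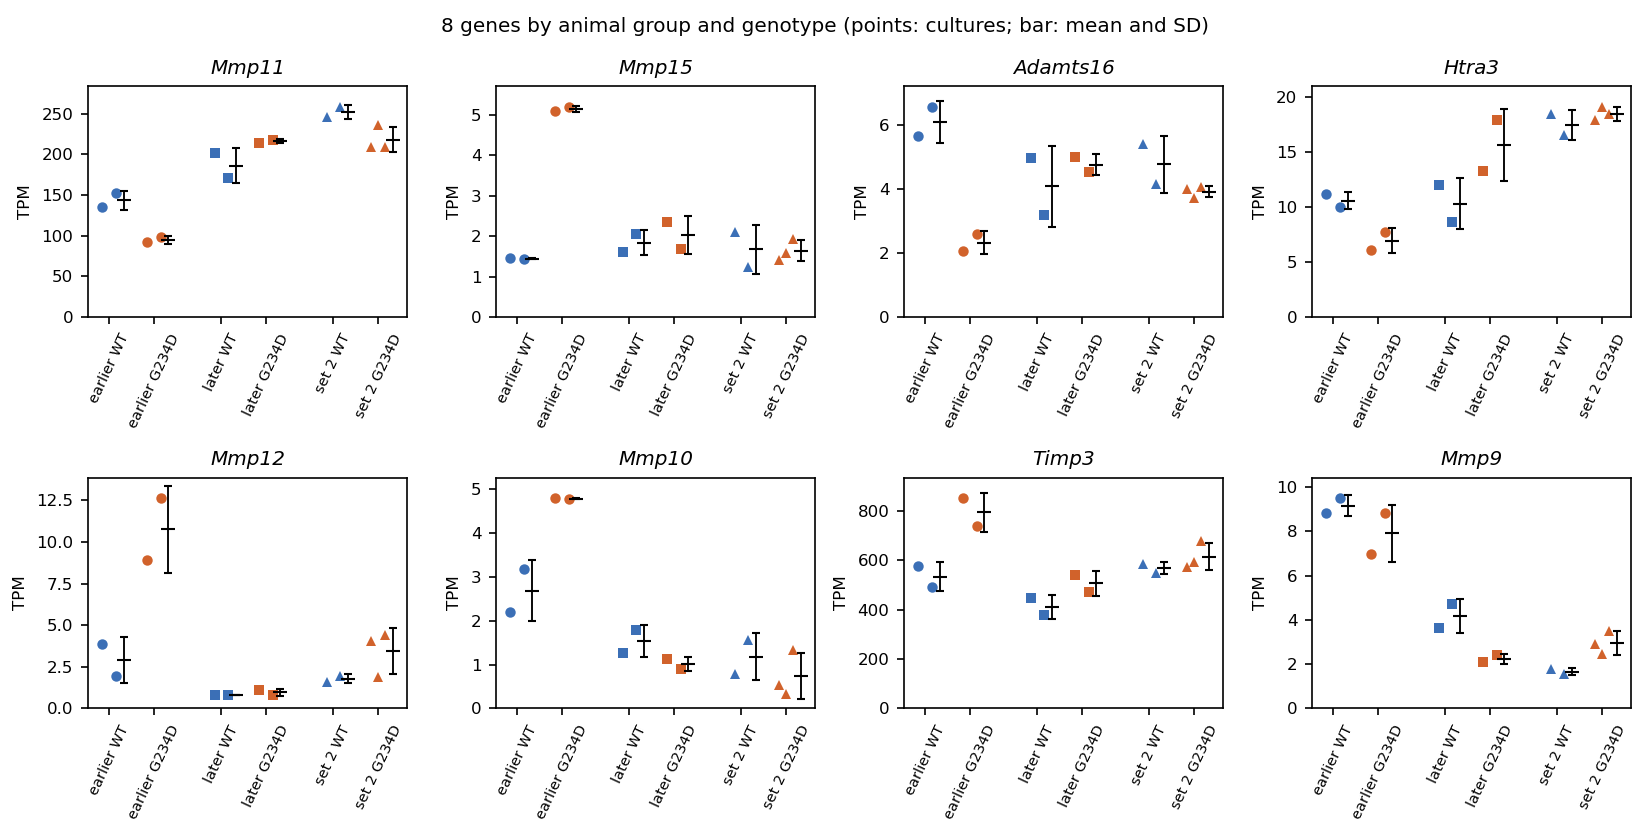
TPM (vertical axes, from 0) of Mmp11, Mmp15, Adamts16, Htra3, Mmp12, Mmp10, Timp3 and Mmp9 in single cultures, by animal group and genotype (WT blue, G234D orange), with bars for the mean and SD. Mmp15 is at 5.10 and 5.20 TPM in M1 and M2 and at 2.36 TPM or less elsewhere, and Mmp11 and Adamts16 are lowest in M1 and M2.

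The ratio of protease to inhibitor transcripts was lowest in M1 and M2. The summed TPM of the 37 MMP, ADAMTS and ADAM genes divided by that of the 4 TIMPs was 1.51 and 1.58 in W1 and W2, 1.18 and 1.28 in M1 and M2, 1.64 and 1.56 in W3 and W4, and 1.64 and 1.66 in M3 and M4. In set 2 the ratio was 1.70 and 1.74 in W5 and W6 and 1.66, 1.68 and 1.62 in M5 to M7. The G234D cultures lay lower in the earlier animals and in set 2 but not in the later animals. The G234D minus WT difference in the log2 ratio was -0.33 for the earlier animals, 0.05 for the later ones and -0.06 for set 2. No p is given for this ratio, which sums genes listed with earlier results known.

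The low ratio of M1 and M2 lay on the side of the inhibitors. The protease sum was 2393 and 2384 TPM in M1 and M2 and 2369 and 2288 TPM in W1 and W2, whereas the TIMP sum was 2033 and 1856 TPM against 1572 and 1451 TPM. Timp3 made up 41.8% and 39.8% of the TIMP sum in M1 and M2, against 36.7% and 34.0% in W1 and W2. With Timp3 left out the difference in the earlier animals was -0.20. A sum of this kind is carried by its highest genes, Mmp14, Mmp2 and Adam9 among the proteases; as the mean log2(TPM + 1) of proteases less that of TIMPs, in which each gene counts alike, the difference was -0.12. That mean also counts genes under 1 TPM in all cultures. Among them Timp4 differed by 0.013 between the genotypes of the earlier animals, against 0.25, 0.21 and 0.57 for Timp1, Timp2 and Timp3. The 37 genes cut different substrates, and transcript sums do not measure enzyme activity.

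**Figure D5:**
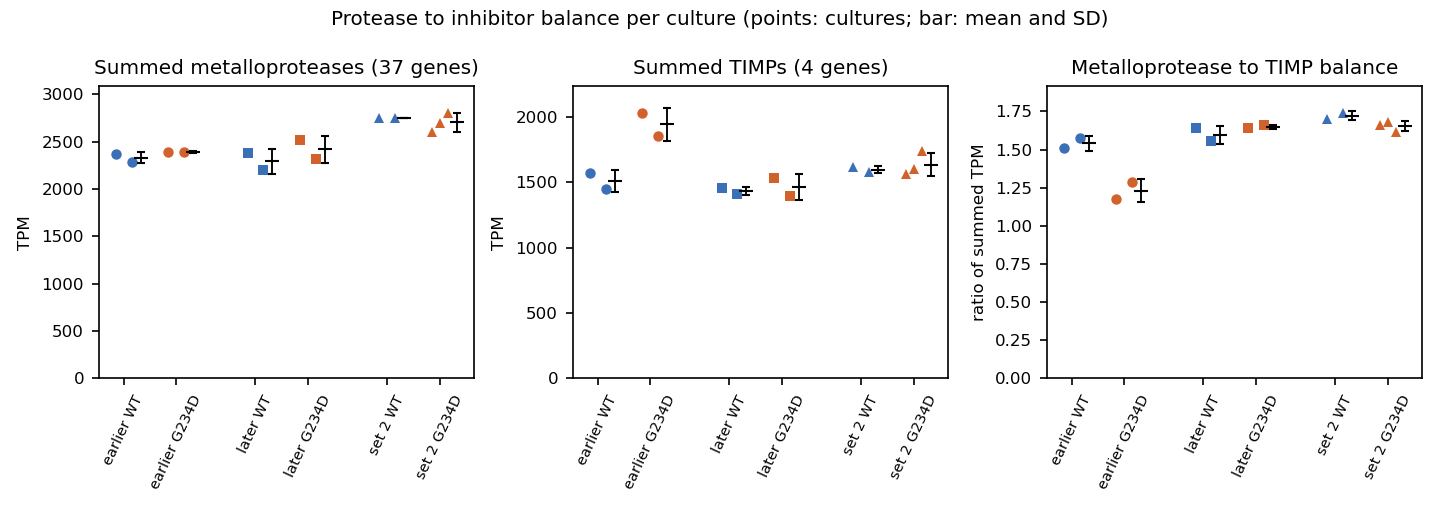
Summed TPM of the 37 metalloproteases, summed TPM of the 4 TIMPs and their ratio in single cultures, by animal group and genotype, with bars for the mean and SD and axes from 0. The ratio is 1.18 and 1.28 in M1 and M2 and 1.51 to 1.74 in the other 11 cultures.

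Between the sets, levels are given without a test, since the sources used here do not say what else differed between them. Of the 35 genes, Mmp14, Mmp23, Adamts1, Adamts5 and Adam15 had all 5 cultures of set 2 above all 8 of set 1, and Adam10 had them below, against 6.82% and 10.4% of all genes, 17.2% together. The ratio of the set 2 mean to the set 1 mean was 1.24 for Mmp14, 1.27 for Mmp23, 1.73 for Adamts1, 1.42 for Adamts5, 1.30 for Adam15 and 0.82 for Adam10.

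The partners of these enzymes were looked at as a separate list of 21 genes: precursor-cutting convertases, ADAM escorts of the iRhom and tetraspanin families, and binders and scavengers such as Reck, Lrp1 and Cd44. None of those tested was called for genotype or for later against earlier animals, where 7.14% of all genes were called. In the interaction of animal group and genotype Cd44, a hyaluronan receptor that docks MMPs at the cell surface (-0.77, adjusted p = 0.0162, limma), and Tspan15, an escort of Adam10 (-1.17, adjusted p = 0.0390), were called, 2 of 16 tested, against 2.81% of all genes; with the replicate block Tspan15 lost the call (adjusted p = 0.0571). Of a list of 23 further proteases and their relatives, 10 were tested: 3 rose and 1 fell in the later animals, against 2.79% and 4.35% of all genes, and 1 was called in the interaction, against 2.81%.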

How the data were processed

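RNA of 13 primary cultures was measured, and per the labels' protocols it was column-purified total RNA made into stranded libraries. The authors deposited TPM per gene in a table for each library, per the file headers; the submitters' processing notes name build mm10. Which aligner, quantification tool and annotation were used is not given in the sources used here. TPM keep no read totals, so depth is unknown and the SE between cultures sets the precision. Identifiers of 25600 of the 25655 genes were found in GENCODE M21, which gave coordinates.

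Groups came from the genotype labels, sets from the series' design and animal groups from the numbers in the titles. The log2(TPM + 1) values were tested with limma 3.58.1 in R 4.3.3 (mean-variance trend, robust empirical Bayes, Benjamini-Hochberg over all genes tested). A gene entered a fit if it reached 1 TPM in 6 libraries (both sets), 4 (set 1) or 2 (set 2). The 6 comparisons were G234D minus WT in all cultures (animal group as covariate), in set 1 (likewise) and in set 2, set by genotype, later minus earlier animals of set 1 (genotype as covariate), and animal group by genotype. The p values measure the spread between cultures.

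The genes, lists and comparisons were chosen with earlier results of these data known. Values of every culture, or their range, are given for the 2 highest genes of each role group, the 8 highest of all, genes called (at most 6 a comparison), genes at an unadjusted p under 0.05 over both sets, and Mmp15, Adamts16 and Timp3. Other genes are given by range and count.

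Same-numbered WT and G234D cultures of set 1 deviated together from the means of their genotype and set (r = 0.314, 0.236, 0.244 and 0.214). All were over the limit of 0.1, and those of set 2 were not (-0.155 and 0.0138). The means were not taken by animal group, so the difference between animal groups stayed in the deviations. In set 2 the 2 WT cultures mirror each other about their mean, so their r with a given culture are equal with opposite signs. Within an animal group, W1 and M2 (0.397) and W3 and M4 (0.440), whose numbers differ, deviated together more strongly. In set 1, numbers 1 and 2 are earlier animals and 3 and 4 later ones in both genotypes. These r therefore do not tell pairing by number from animal group, and the labels tie the numbers to no litter. Alternatives were other filters, pseudocount, scalings, the non-robust step, no animal group, a replicate block and cultures left out. The models were tested on simulated data. Of 50 genes changed 1.5-fold, 45 were recovered for later minus earlier animals (12010 genes simulated), 34 for genotype in set 2 (12006) and 22 for animal group by genotype (12022). The changed genes were drawn above a floor on mean TPM. Mmp10, Mmp12, Mmp15 and Adamts16 lie below that floor, so these counts do not cover genes of their level.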

Additional observations from a re-analysis of the deposited data

Results flagged for a closer look

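In 3 genes the difference between genotypes itself differed between the animal groups of set 1 by limma's interaction test. The interaction was -1.24 for Mmp15, 0.81 for Mmp11 and 1.30 for Adamts16 on the log2(TPM + 1) scale, each with n = 2 cultures in a genotype and animal group. The calls depended on single cultures, as given with the results.

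Adamts5 was at 65.5 TPM in W3, far above the other 3 WT cultures of set 1, which were at 51.1 to 53.5 TPM. The gap to the next culture was 0.834 of the range of the 4, just past the limit of Dixon's test for 4 values. This was 1 of 50 groups of 4 cultures looked at, and chance alone gives about 1 in 20.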

How the results depend on the processing

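Over both sets, 0 genes of the family were called under every alternative run, the replicate block included (0 genes in all). In set 1 the block gave 1 gene and in set 2, whose same-numbered cultures did not deviate together, 21; it gave 0 for set by genotype, and none of the family in any of these. For animal group by genotype the block, added after seeing the data, gave 189 genes and 2 of the family, without Mmp15. For later minus earlier the numbers lie within the animal groups, so the block was a random effect, also added later: it gave 2037 genes and 14 of the family, with a consensus correlation of -0.23 between same-numbered cultures. Genes called in set 1, against 1, were 0 with no filter and with no animal group, 8 without M1 and M2 and 0 to 8 with single cultures left out (0 to 1 of the family). In set 2 they were 0 with no filter and at 10 TPM, and 0 to 14 leaving out cultures. For set by genotype they were 0 with no filter, with the non-robust step and with no animal group, and 0 to 4 leaving out cultures.

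Later minus earlier called 269 genes and 5 of the family with no filter (4 of the 11, and Mmp27; Mmp10, Mmp11, Mmp16, Mmp17, Adam19, Adamts1 and Adamts12 lost the call), 6 of the family at 10 TPM, where 23 were tested, 13 and 0 without M1 and M2, and 36 to 883 and 1 to 11 leaving out cultures. Animal group by genotype called 139 genes and 1 of the family, Mmp11, with no filter, and 46 to 674 and 0 to 8 leaving out cultures. Where fewer genes or cultures were tested the construction changes the count; otherwise the cause was not tested.

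The difference in the log2 ratio of proteases to TIMPs as mean log2 values was -0.12 for the earlier animals, -0.011 for the later ones and -0.019 for set 2. Without Timp3 it was -0.20, 0.17 and -0.014, and with MMPs alone it was 0.12 for the later animals. The sign changed over both sets for Mmp14 (-0.012 under median-of-ratios scaling, and -0.019 to 0.024 leaving out cultures, below 0 without W3, W4, M3 or M4), Timp2 (-0.0052 without M1 and M2) and Timp1 (-0.082 without M1 and M2, and -0.020 to 0.054 leaving out cultures, below 0 without W2 or M1). Of 977 values of single genes under alternatives, 836 kept direction and call, 121 lost a call, 11 gained one and 9 changed sign. Depth could not be weighed, since TPM keep no counts.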
